A study of Mus musculus with 5 samples.

Results

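Sox genes encode transcription factors that bind DNA through a high mobility group (HMG) box, and 10 of them that act in neural progenitors and young neurons were followed by RNA sequencing in mouse neurospheres. They were chosen by gene symbol, 1 row for each, from the 54532 genes of the deposited table: Sox1, Sox2 and Sox3 of the SoxB1 group, Sox21 of SoxB2, Sox4, Sox11 and Sox12 of SoxC, Sox5 and Sox6 of SoxD, and Sox9 of SoxE. All 10 passed the filter on low values, so that each was among the 16411 genes tested.

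Neurospheres are cell aggregates in suspension culture that hold neural stem cells and what they give rise to, here grown from the hippocampus of C57BL/6 mice at P0 (the day of birth) in medium with the growth factors EGF and FGF-2 (20 ng/ml each) and collected on day 7. The genotype was hGFAPCre+, Arid1b+/+ in the 2 control libraries and hGFAPCre+, Arid1b flox/+ in the 3 heterozygous ones. The Cre transgene was thus shared by both groups. It is driven by the human GFAP promoter, which is active in neural progenitors, so that the floxed copy can be lost only in cells that have expressed Cre and their descendants. The Arid1b protein belongs to the BAF complex, which remodels chromatin. The cells of 1 mouse were plated in 2 wells, and the labels leave unsaid whether every library had its own mouse, so that p-values here speak of the spread between libraries, which may be technical.

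Recovered depth was 19833803 to 25494722 reads per library. Across tested genes, the heterozygous libraries correlated at 0.988 to 0.989 with each other and the controls at 0.952, and control replicate 1 stood farthest from the heterozygous libraries (0.927 to 0.930, against 0.971 to 0.974 for control replicate 2). These coefficients are across genes, which are not replicates, and only describe the libraries. Arid1b had 1510 and 1730 normalized counts (controls) against 1102, 1145 and 1003 (heterozygous), without overlap, and a log2 fold change of -0.58 (limma: SE 0.14, adjusted p = 0.0701) that did not pass the test. Normalized counts are the reads of a gene divided by the size factor of its library. The labelled cell type, neural progenitor cells, was matched by reads of all 14 progenitor markers examined, of which 9 had a negative log2 fold change (median -0.41). The summed normalized counts of this list were 161400 and 184574 (controls) against 218456 to 247458 (heterozygous), of which Vim alone gave 30.9%. Without Vim the sum was still higher in every heterozygous library (121669 and 131290 against 146755 to 166485). Fabp7, whose groups overlapped, gave 26477 and 52161 of it against 51463 to 69670. Singly, 7 of the 14 markers were lower in every heterozygous library and 4 higher (Hopx, Nes, Tnc and Vim). Of all tested genes 23.3% and 23.4% were, so the sum does not stand for most of the markers. Neuron markers were read as well, at 32741 and 37211 against 45938 to 59920.

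SoxB1 proteins keep neural cells in the progenitor state, and Sox21 is a repressor that opposes them. SoxC proteins activate genes of newly formed neurons. SoxD proteins carry no activation domain of their own and act with partner factors in projection neurons, interneurons and oligodendrocyte precursors, while Sox9 is needed for stem cells and for the start of glial differentiation. In the hippocampus, Sox2 marks the stem cells from which granule neurons are made, and Sox4 and Sox11 are switched on as these neurons form.

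The sequences of the SoxC paralogues are shown first, because the results turn on a difference between Sox4 and Sox11 and because reads from similar genes can be miscounted. In an ungapped search, the coding window of Sox4 with the highest mean identity to the other 9 genes lay in the part that encodes the HMG box. In it Sox4 and Sox11 were identical at 89.5% of bases, Sox4 and Sox12 at 85.2%, and Sox4 and Sox2 at 68.8%. The following 90 bases are the stretch of this window in which Sox11 and Sox12 were most like Sox4 (mm10, GENCODE transcripts, coding strand), at chr13:28952752-28952841 for Sox4, chr12:27342169-27342258 for Sox11, chr2:152397486-152397575 for Sox12 (all on the - strand) and chr3:34650548-34650637 for Sox2 (+ strand). Capitals mark bases that differ from Sox4.
Sox4: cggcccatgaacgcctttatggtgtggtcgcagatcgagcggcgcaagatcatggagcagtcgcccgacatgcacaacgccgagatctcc
Sox11: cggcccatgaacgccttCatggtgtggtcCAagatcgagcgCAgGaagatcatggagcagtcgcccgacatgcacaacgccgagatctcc
Sox12: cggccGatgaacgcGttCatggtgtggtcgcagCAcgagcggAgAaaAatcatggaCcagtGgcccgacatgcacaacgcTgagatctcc
Sox2: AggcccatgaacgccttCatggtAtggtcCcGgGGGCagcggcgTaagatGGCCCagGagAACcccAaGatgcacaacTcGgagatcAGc
Sox11 differed from Sox4 at 6 of these bases, Sox12 at 11 and Sox2 at 25. The longest identical run in the window was 48 bases, between Sox4 and Sox11, and no stretch of 50 bases was shared between any 2 of the 10 genes in the annotated transcripts. Overlap with other genes was larger: 54.1% of the 50-base stretches of Sox4 also lie in Gm26735, a long noncoding RNA gene on the opposite strand that shares 2616 exonic bases with Sox4. Gm26735 was listed at 0 reads in all 5 libraries, and the sources used here do not state whether counting used the strand.

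The start regions of Sox4 and Sox11 are shown because this pair had the largest difference in response of the 9 pairs examined. The 250 bases before the start site, from RefSeq (GRCm38.p6), are at chr13:28953700-28953949 for Sox4 and chr12:27342719-27342968 for Sox11, both on the - strand. The last few bases of the Sox4 window lie inside the GENCODE gene, whose start is farther upstream. Capitals mark CCAAT and GGGCGG on either strand, the boxes bound by NF-Y and by Sp1-type factors.
Sox4: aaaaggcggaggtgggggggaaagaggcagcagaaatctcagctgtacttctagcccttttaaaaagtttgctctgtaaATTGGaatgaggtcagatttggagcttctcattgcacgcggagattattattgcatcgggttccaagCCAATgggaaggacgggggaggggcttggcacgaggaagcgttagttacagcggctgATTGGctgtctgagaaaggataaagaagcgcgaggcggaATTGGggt
Sox11: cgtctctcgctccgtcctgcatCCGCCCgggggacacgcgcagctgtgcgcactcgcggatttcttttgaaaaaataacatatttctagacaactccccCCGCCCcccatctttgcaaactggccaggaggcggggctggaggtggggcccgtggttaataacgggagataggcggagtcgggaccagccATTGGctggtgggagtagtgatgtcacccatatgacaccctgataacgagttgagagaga
Sox4 held 4 CCAAT matches, beginning 171, 104, 47 and 8 bases before the start, and no GGGCGG, whereas Sox11 held 1 CCAAT match at 60 bases and 2 GGGCGG matches at 228 and 151 bases. No marked match overlapped another. Of the 32851 RefSeq windows of this length, 33.8% held CCAAT and 32.7% held GGGCGG. The Sox motifs ACAAT and ACAAAG, found in 27.7% and 16.5% of windows, were in neither window, and the hypoxia motif GCGTG, found in 28.2%, had 1 match in each. The windows had 50.8% (Sox4) and 58.0% (Sox11) G and C bases, against a median of 52.4%. The window of Sox2, a gene with a negative log2 fold change, held 1 CCAAT and 2 GGGCGG matches, the same numbers as Sox11. That of Sox1, also with a negative log2 fold change, held 1 CCAAT and 3 GGGCGG matches. These matches describe the letters and are not binding sites.

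Of the 10 Sox genes, Sox4 alone passed the test (limma on log2 of the normalized count plus 1, Benjamini-Hochberg adjusted p under 0.05) and 9 did not. It fell to 0.518 of its control level. Among all tested genes 2.84% passed, 0.944% as lower and 1.9% as higher. At an unadjusted p under 0.05 there were 6 of the 10, all lower, against 26.1% of tested genes in either direction and 12.4% lower. Read without a threshold, 8 of the 10 log2 fold changes were negative, against 49.5% of all tested genes, and the median over the 10 was -0.57 against 0.0079 over all tested genes. The 10 genes were chosen with earlier results of these data known, so these counts describe them and are no test of the family. In 6 genes (Sox1, Sox2, Sox4, Sox5, Sox6 and Sox9) every heterozygous library lay below both controls, as it did in 23.3% of tested genes, and in Sox11 every heterozygous library lay above both, as in 23.4% (46.7% for the 2 directions together). The groups overlapped for Sox3, Sox12 and Sox21. In bulk RNA, fewer cells of a type and less RNA per cell cannot be told apart.

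**Figure D1:**
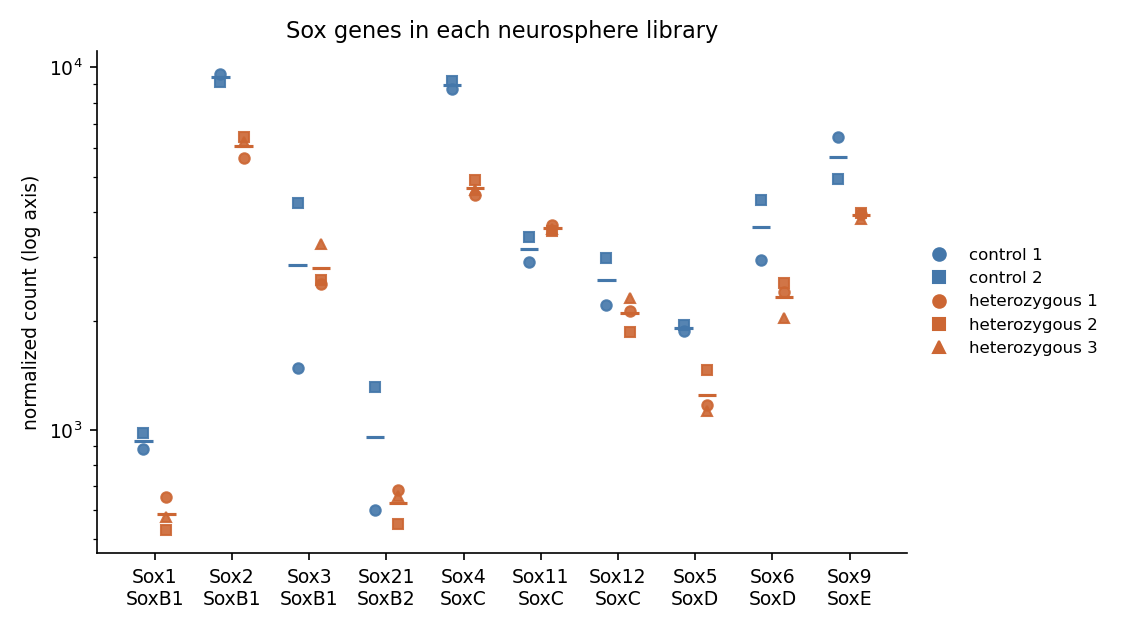
Normalized count of each Sox gene in each library, on a log axis, with control libraries in blue and heterozygous libraries in orange; horizontal bars are group means (2 and 3 libraries). The groups are apart for Sox1, Sox2, Sox4, Sox5, Sox6, Sox9 and Sox11, and the 2 controls lie far apart for Sox3 (1477 and 4219) and Sox21 (599 and 1313).

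The SoxB1 gene with the most RNA was Sox2, the progenitor factor (ENSMUSG00000074637, chr3:34650405-34652461, + strand). It had 9615 and 9144 normalized counts (controls) against 5611, 6417 and 6233 (heterozygous). The controls lay close together, and every heterozygous library lay below them. Mean levels of 9380 ± 334 (SD, n = 2) in controls and 6087 ± 423 (SD, n = 3) in heterozygotes gave a log2 fold change of -0.63 (limma: SE 0.13, adjusted p = 0.0549) just outside the threshold of 0.05. Sox2 is a single exon inside an intron of Sox2ot, a noncoding RNA gene on the same strand, with which it shares no exonic base. Sox2ot itself had 420 and 639 (controls) against 372 to 489 (heterozygous), so the groups overlapped there.

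Sox1, another SoxB1 progenitor factor (ENSMUSG00000096014, chr8:12395295-12400126, + strand), had 884 and 981 normalized counts (controls) against 654, 528 and 575 (heterozygous). The groups were apart, as for Sox2, with a log2 fold change of -0.67 (limma: SE 0.15, adjusted p = 0.0680) that did not pass. The difference between Sox1 and Sox2 in this response was -0.049 on the log2 scale, within the spread of single libraries.

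Sox3, the X-linked SoxB1 factor (ENSMUSG00000045179, chrX:60891366-60893430, - strand), showed no common direction. Its values were 1477 and 4219 normalized counts (controls) against 2520, 2592 and 3249 (heterozygous), so that all heterozygous values lay between the controls. The log2 fold change was 0.15 with a 95% interval of -0.85 to 1.15 (limma: SE 0.41, adjusted p = 0.837), which became -0.61 when control replicate 1 was left out (adjusted p = 0.0301) and 0.91 when control replicate 2 was (adjusted p = 0.00193). The gap between the controls, 1.51 on the log2 scale, was exceeded by 8.01% of tested genes. The direction for Sox3 therefore depended on which control was used. Heterozygous replicate 2 held 36851 reads of Xist, the RNA that silences an X chromosome, against 1 to 301 in the other libraries, and no read of 4 Y-linked genes that were read in all the others. Its Sox3 value lay between those of the other heterozygous libraries, and without it the log2 fold change was 0.20.

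Sox21, the SoxB2 repressor (ENSMUSG00000061517, chr14:118233232-118237030, - strand), had a similar split between controls, with normalized counts of 599 and 1313 against 684, 548 and 658. Its log2 fold change of -0.50 (limma: SE 0.33, adjusted p = 0.363) became -1.06 when control replicate 1 was left out (adjusted p = 0.00451) and 0.065 when control replicate 2 was. Proliferation genes differed in the same direction between the controls as Sox3 and Sox21, with 10 genes that summed to 15121 normalized counts in the first control, 43218 in the second and 26790 to 31055 in heterozygotes. Their part in the Sox3 and Sox21 values was not tested. Sox21 shares 713 exonic bases with Gm4675, a noncoding RNA gene on the opposite strand with normalized counts of 10.7 to 28.9.

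Sox4, the SoxC factor that activates neuronal genes (ENSMUSG00000076431, chr13:28948919-28953713, - strand), gave the clearest values. It had 8743 and 9189 normalized counts (controls) against 4446, 4902 and 4586 (heterozygous). The spread within each group was small beside the gap between them. Mean levels of 8966 ± 315 (SD, n = 2) in controls and 4645 ± 234 (SD, n = 3) in heterozygotes gave a log2 fold change of -0.95 (SE 0.12, 95% interval -1.24 to -0.66, limma adjusted p = 0.0303), and 6.06% of tested genes had a log2 fold change as low or lower. Leaving out control replicate 1 gave -0.99 and leaving out control replicate 2 gave -0.91. The call was lost without heterozygous replicate 1, 2 or 3 (limma adjusted p = 0.226, 0.201 and 0.184), where at most 1 of all tested genes passed and the log2 fold change stayed at -0.99 to -0.92.

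Sox11, its close paralogue, had the opposite sign and did not pass (ENSMUSG00000063632, chr12:27334264-27342574, - strand). Its values were 2900 and 3397 normalized counts (controls) against 3665, 3540 and 3576 (heterozygous). Every heterozygous library lay above both controls, by little, and the log2 fold change was 0.20 with a 95% interval of -0.11 to 0.50 (limma: SE 0.13, adjusted p = 0.358), without passing. Per length, as TPM, the groups overlapped (53.5 and 64.8 against 68.9, 67.8 and 62.5). It passed as higher without control replicate 2 (0.31, adjusted p = 0.0294), where 27.2% of all tested genes did.

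Sox12, the third SoxC gene (ENSMUSG00000051817, chr2:152393611-152398063, - strand), lay between these. Its values were 2214 and 2978 normalized counts (controls) against 2131, 1857 and 2315 (heterozygous), with 1 heterozygous value inside the control range. Its log2 fold change was -0.30 (limma: SE 0.18, adjusted p = 0.325), which became -0.51 when control replicate 1 was left out (adjusted p = 0.0375) and -0.082 when control replicate 2 was.

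**Figure D2:**
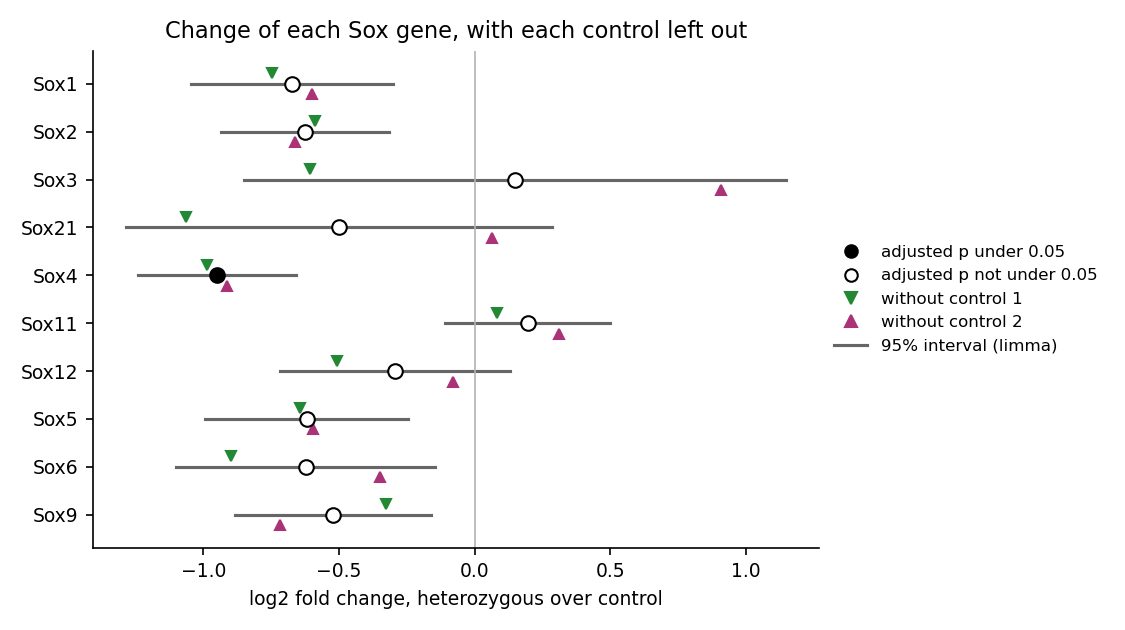
Log2 fold change of each Sox gene, heterozygous over control, with its 95% interval from limma; the filled circle is the gene with an adjusted p under 0.05, and triangles give the value with 1 control left out. Sox4 stays between -0.99 and -0.91 when a control is left out, whereas Sox3 and Sox21 cross 0.

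The SoxD genes had nearly equal log2 fold changes of about the size seen in Sox2. Sox5 (ENSMUSG00000041540, chr6:143828425-144781977, - strand), known from deep-layer projection neurons, had 1878 and 1942 normalized counts (controls) against 1168, 1460 and 1126 (heterozygous). Its groups were apart, with a log2 fold change of -0.62 (limma: SE 0.15, adjusted p = 0.0783). Sox6 (ENSMUSG00000051910, chr7:115470872-116038796, - strand), known from interneurons and oligodendrocyte precursors, had 2943 and 4310 against 2394, 2538 and 2033. Its groups were apart too, with a log2 fold change of -0.62 (limma: SE 0.20, adjusted p = 0.122), but its controls differed more, and the value became -0.90 when control replicate 1 was left out (adjusted p = 0.00595) and -0.35 when control replicate 2 was. Neither passed the test with all libraries. Sox5 shares 1330 exonic bases with the antisense gene Sox5os1, which had normalized counts of 0 to 4.65.

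Sox9, the SoxE factor of stem cells and early glia (ENSMUSG00000000567, chr11:112782224-112787760, + strand), had 6422 and 4909 normalized counts (controls) against 3942, 3965 and 3819 (heterozygous). The heterozygous values lay within a narrow band below both controls. The log2 fold change was -0.52 (limma: SE 0.15, adjusted p = 0.101), which became -0.33 when control replicate 1 was left out and -0.72 when control replicate 2 was (adjusted p = 0.000785).

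**Figure D3:**
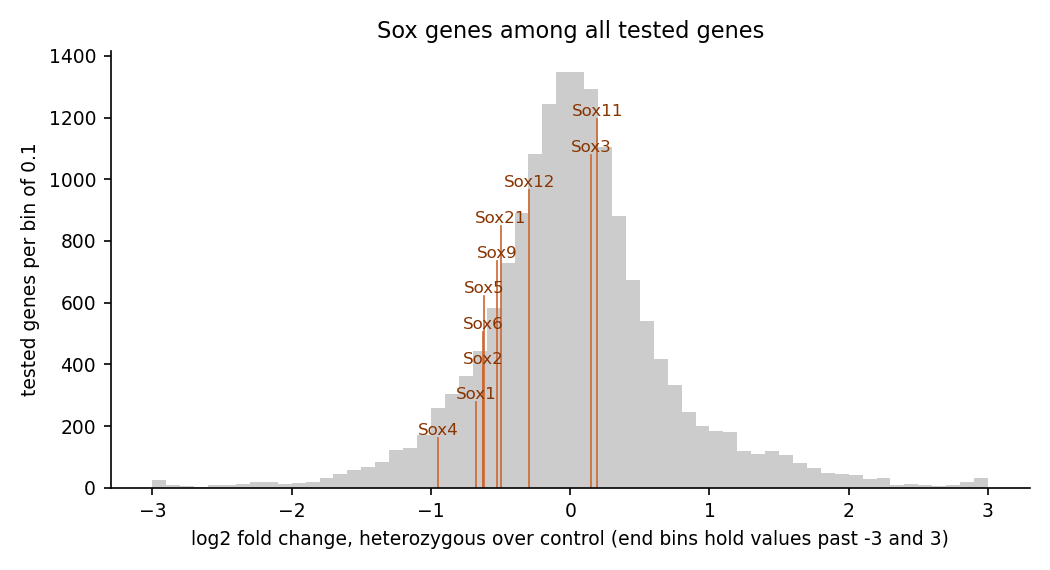
Grey bars count the tested genes by log2 fold change, heterozygous over control, in bins of 0.1, and the orange lines mark the 10 Sox genes (line heights only separate the labels). Sox1, Sox2, Sox5, Sox6 and Sox9 lie between -0.67 and -0.52, with Sox4 below them at -0.95 and Sox11 and Sox3 above 0.

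Of the other tests, DESeq2 placed more of these genes past the threshold and edgeR did not. edgeR's quasi-likelihood test on the recovered reads called Sox4 alone (adjusted p = 0.0312), with Sox2 at an adjusted p of 0.0576 and Sox1 at 0.0637, and called 1.03% of genes lower. DESeq2 called 6 lower (Sox1, Sox2, Sox4, Sox5, Sox6 and Sox9), against 7.15% of genes. The authors' deposited table has 5 of the 10 lower at an adjusted p under 0.05, the same as DESeq2 here without Sox6, with log2 fold changes from -0.51 (Sox9) to -0.92 (Sox4), and none higher. Of all 54532 genes in it, 1045 were lower and 1101 higher at this threshold. That total includes many genes without reads, as only 24961 to 25941 genes had a read in each library. Without control replicate 1, limma called 8 lower, where 7.62% of genes were lower (and 9.21% higher), and without control replicate 2 it called 5 lower and 2 higher (Sox3 and Sox11), where 23.5% and 27.2% of genes were. The genes called lower in both of these fits were Sox1, Sox2, Sox4 and Sox5. In those fits the lone control is assumed to vary like the heterozygous libraries.

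Levels of different genes were compared per length, as TPM, the reads per kilobase of annotated exon, scaled to the same sum in each library. Sox2 had the highest TPM of the 10 in every library, at 717 and 705 (controls) against 426 to 497 (heterozygous), and its range did not touch that of the next gene. Sox3, Sox4 and Sox9 followed with ranges that overlapped (110 to 324, 139 to 304 and 134 to 238 TPM), then Sox12 (66.4 to 106) and Sox11 (53.5 to 68.9), which overlapped each other. Sox21, Sox6, Sox1 and Sox5 were at 11.4 to 54.8 TPM, each overlapping its neighbour in the order, and the highest Sox21 value passed the lowest of Sox11. The order of the mean levels was the same in both groups except that Sox4 stood above Sox3 in the controls and below it in the heterozygous libraries. That exchange rested on control replicate 1, with Sox4 at 280 TPM and Sox3 at 110. In control replicate 2 Sox3 stood above Sox4 (324 against 304), as in the heterozygous libraries.

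Within the SoxC group, the makeup of the RNA differed between the groups. Sox4 supplied 68.3% and 64.0% of SoxC TPM (controls) against 50.2%, 54.8% and 50.2% (heterozygous). The share of Sox11 was 13.1% and 13.7% against 23.9%, 22.8% and 22.6%, and that of Sox12 was 18.6% and 22.3% against 25.9%, 22.4% and 27.3%. These shares are parts of 1 sum, so a lower Sox4 part raises the other shares. The TPM of Sox11 itself overlapped between the groups (53.5 and 64.8 against 62.5 to 68.9). The TPM of Sox4 was 5.23 and 4.69 times that of Sox11 (controls) against 2.10, 2.40 and 2.22 times (heterozygous). Summed SoxC TPM was 410 and 475 in the controls against 289, 297 and 277, and summed SoxB1 TPM was 855 and 1061 against 638, 714 and 686. Both sums were lower in every heterozygous library, and their ratio, SoxC over SoxB1, overlapped between the groups (0.479 and 0.447 against 0.452, 0.416 and 0.404).

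**Figure D4:**
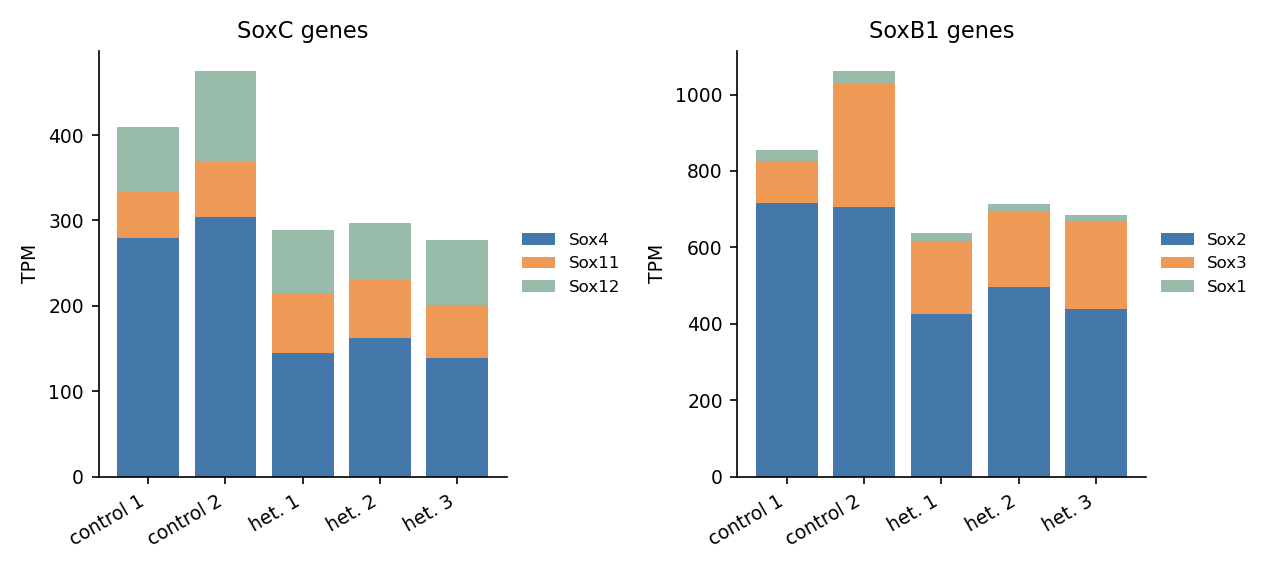
Stacked TPM of the SoxC genes (left) and the SoxB1 genes (right) in each library. The Sox4 part is 280 and 304 TPM in the controls and 139 to 163 in the heterozygous libraries, while the Sox11 part is 53.5 to 68.9 TPM in all 5.

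The difference in response between genes was examined in 9 pairs, as the log2 ratio of normalized counts within each library, with an exact two-sided permutation test over libraries. With 3 against 2 libraries this test cannot give a p below 0.2, so no pair could pass. The ratio of Sox4 to Sox11 had log2 values of 1.59 and 1.44 (controls) against 0.28, 0.47 and 0.36 (heterozygous). The heterozygous mean minus the control mean was -1.14, well beyond the SD of 0.11 in the controls and 0.096 in the heterozygous libraries (exact permutation p = 0.2, 0.45 adjusted over the pairs). The groups were also apart for Sox4 to Sox12 (a difference of -0.65), Sox11 to Sox12 (0.49) and Sox2 to Sox4 (0.32), each with an exact permutation p = 0.2 (0.45 adjusted). The ratio of Sox2 to Sox4 was thus higher in every heterozygous library than in either control. Sox4 is part of every pair that was apart except Sox11 to Sox12, so these pairs share its lower values. How often other pairs of genes are apart was not counted, and of single tested genes 46.7% were.

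The remaining 5 pairs overlapped between the groups. Their differences were -0.77 for Sox2 to Sox3, -0.13 for Sox2 to Sox21, -0.10 for Sox2 to Sox9, -0.049 for Sox1 to Sox2 and 0.0038 for Sox5 to Sox6 (exact permutation p = 0.6 to 1). The ratio of Sox2 to Sox3 was spread by the controls, at log2 values of 2.70 and 1.12, with the heterozygous libraries at 0.94 to 1.31. None of these tests shows that the genes of a pair respond alike.

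**Figure D5:**
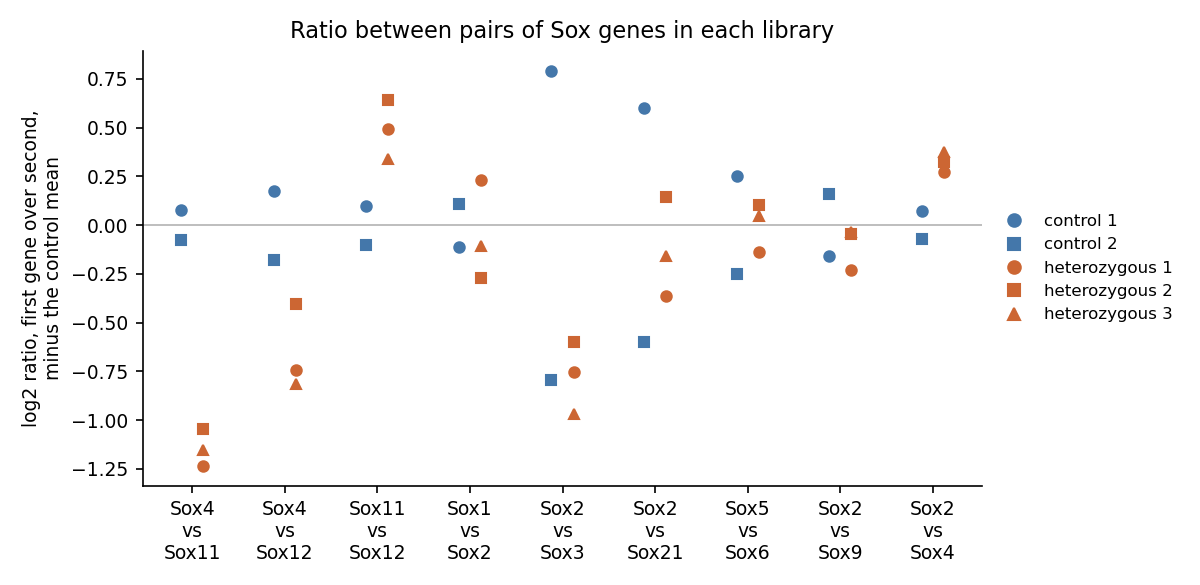
Log2 ratio of 2 Sox genes within each library, set to 0 at the control mean, for the 9 pairs examined. The 3 heterozygous libraries lie around their mean of -1.14 for Sox4 against Sox11, and control libraries spread most for Sox2 against Sox3.

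Genes that act with or under these factors were taken from lists made with earlier results of these data known, so that their direction is a description. Of the 9 other Sox genes listed, 5 were tested, Sox14 had no read in any library, and Sox10, the factor of oligodendrocyte lineage cells, fell. Its control mean of 3490 ± 885 normalized counts (SD, n = 2) compared with 1308 ± 146 (SD, n = 3) in heterozygotes, a log2 fold change of -1.40 (limma: SE 0.19, adjusted p = 0.0355). Sox8, the other SoxE gene, had 5634 ± 1786 and 2679 ± 290, a log2 fold change of -1.04 (limma: SE 0.22, adjusted p = 0.0559). Both SoxE relatives of Sox9 thus had larger negative log2 fold changes than Sox9 itself, a difference that was not tested.

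Of 11 POU, Pax, Prox and Nfi factors that pair with Sox proteins or share their enhancers, 1 fell, none rose and 10 log2 fold changes were negative, with a median of -0.34. The gene that fell was Pou3f2 (Brn2), a POU partner of Sox2 on neural enhancers, from 1461 ± 73.1 to 827 ± 48.2 normalized counts (SD, n = 2 and n = 3, log2 fold change -0.82, SE 0.13, limma adjusted p = 0.0405). Pou3f3, its relative, had -0.66 (limma adjusted p = 0.0763) and Pax6 had -1.08 (limma adjusted p = 0.116), with controls of 2436 and 1062 normalized counts and a log2 fold change of -0.48 when control replicate 1 was left out and -1.68 when control replicate 2 was. Pou3f1 had the opposite sign at 2.06 (limma adjusted p = 0.0906), with controls of 147 and 621, and 1.02 or 3.10 when the first or the second control was left out.

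Among 10 tested progenitor genes known to depend on SoxB1 proteins or to be bound by them, Hes5, a Notch effector, fell (log2 fold change -1.49, SE 0.27, limma adjusted p = 0.0475) and 9 did not pass. Nestin (Nes), an intermediate filament whose enhancer is a textbook target of Sox2, had 1.21 (limma: SE 0.36, adjusted p = 0.109), and Vim, another intermediate filament, had 0.75 (limma adjusted p = 0.0952), both opposite in sign to Sox2. The controls of Nes were 6454 and 15905 normalized counts, and its log2 fold change was 0.56 with the first control left out and 1.86 with the second left out. The median of the list was -0.44.

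Among 14 genes of early neurons known to depend on Sox4 or Sox11, 4 rose, none fell and 10 did not pass, with a median log2 fold change of 0.54. Tubb3, the neuronal tubulin, rose from 1306 ± 285 to 4216 ± 1282 normalized counts (SD, n = 2 and n = 3, log2 fold change 1.67, SE 0.26, limma adjusted p = 0.0408). Stmn2, a microtubule regulator of growth cones, rose by a log2 fold change of 1.51, the transcription factor Neurod1 by 1.78 and Igfbpl1, a marker of young neurons, by 0.99 (limma adjusted p = 0.0258, 0.0375 and 0.0489). Against this count, 1.9% of all tested genes rose. The count was 0 with library weights, with a replicate block or with any 1 heterozygous library left out, 6 without control replicate 1, and 9 (with 2 that fell) without control replicate 2. With any 1 heterozygous library left out, at most 1 of all tested genes passed. The 4 called genes were higher in the libraries in which Sox4 fell and Sox11 was slightly higher.

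Of 12 glial genes tied to Sox9, 3 fell (Fgfr3, Sox10 and Aqp4) and 9 did not pass, with a median log2 fold change of -0.42, where 0.944% of all tested genes fell. This count was 0 with library weights, with a replicate block or with any 1 heterozygous library left out, 5 without control replicate 1, and 7 (with 1 that rose) without control replicate 2. With any 1 heterozygous library left out, at most 1 of all tested genes passed. Fgfr3, a growth factor receptor, had -1.03 (limma adjusted p = 0.0353) and Aqp4, the astrocyte water channel, had -1.35 (limma adjusted p = 0.0427). Of 12 lineage genes tied to Sox5 or Sox6, 1 rose (Tbr1, a factor of deep-layer and hippocampal excitatory neurons, log2 fold change 1.30, limma adjusted p = 0.0363) and 11 did not pass. The interneuron peptide Sst had 1.95 (limma adjusted p = 0.0521).

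Markers of cell types differed between the groups as well, partly through the same genes, and their part in the Sox results was not tested. Among all tested genes, 1.9% rose and 0.944% fell. Of 14 neuron markers 7 rose, none fell and the median log2 fold change was 1.51, with Tubb3 and Stmn2 also counted among the SoxC genes. These 7 calls were lost with any 1 heterozygous library left out, where at most 1 of all tested genes passed. In those fits the log2 fold change stayed at 1.43 to 1.79 for Tubb3 and 1.36 to 1.59 for Stmn2. Of 14 progenitor markers Hes5 alone fell, the gene that fell among the SoxB1 genes. Of 10 astrocyte markers Aqp4 alone fell and of 12 oligodendrocyte lineage markers Sox10 alone fell, both counted among the Sox9 genes.

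Summed normalized counts of astrocyte markers were 110429 and 99403 (controls) against 63650 to 78272 (heterozygous). The oligodendrocyte sum overlapped, at 65448 and 93371 against 60867 to 77039, but Olig1 gave 50.3% of it. Without Olig1 it was lower in every heterozygous library (47041 and 43009 against 28020 to 32529), and the median log2 fold change of the list was -1.33. Microglia markers were at 61.7 and 115 against 74.5 to 413, low beside the others.

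The vascular sum overlapped, at 4633 and 3678 against 3530 to 4411, but Cspg4, also a gene of oligodendrocyte precursors, gave 61.7% of it. Without Cspg4 it was higher in every heterozygous library (1455 and 488 against 1486 to 2701), but most of that remainder was Rgs5 (1192 and 284 against 1270 to 2327). Of 11 tested vascular markers, 9 had a positive log2 fold change (median 0.71). The meningeal sum was 2909 and 3549 against 3638 to 4403, of which Pdgfra, also a gene of oligodendrocyte precursors, gave nearly all, and without it the groups overlapped (412 and 401 against 148 to 625). Limma called none of the 7 microglia, 11 vascular and 6 meningeal markers tested, with 1, 4 and 1 of them at an unadjusted p under 0.05, against 26.1% of all tested genes. edgeR called 0 of them, and DESeq2 called 1 microglia marker higher and 1 vascular marker lower.

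In sum, hypoxia genes were higher in both controls than in every heterozygous library. Singly this held for 11 of the 12, where 23.3% of all tested genes were lower without overlap, and Ndrg1 overlapped. Their summed normalized counts over 12 genes were 136343 and 76501 (controls) against 36807 to 41127 (heterozygous). Of the 12, 7 fell, against 0.944% of all tested genes. These calls were lost with any 1 heterozygous library left out, where at most 1 of all tested genes passed. Between these controls, replicate 2 minus replicate 1 on the log2 scale was -0.073 for Sox2, 0.072 for Sox4, 0.048 for Sox5, 0.15 for Sox1, -0.39 for Sox9 and 0.55 for Sox6. The part of hypoxia genes in the difference between the genotypes was not tested.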

How the data were processed

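RNA was sequenced from 2 control and 3 heterozygous neurosphere libraries. The authors deposited normalized counts, a signal equal to reads divided by a library's size factor, beside a log2 fold change, a standard error, a test statistic (a score), a p-value and an adjusted p-value from their own comparison, per the file headers. The submitters' processing notes name STAR, DESeq2 and mm10, while no source used here gives the counter, annotation or strand setting. All values came out as whole reads within 0.001, giving 19833803 to 25494722 reads per library, and libraries of 1 group differed by more than sampling noise (chi-square per gene of 7.31 to 105).

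Genes with a mean normalized count of at least 10 (16411 of 54532) were fitted with limma 3.58.1 (R 4.3.3, intensity trend) on log2(normalized count + 1), a scale that understates the fold change of low genes, calling genes at a Benjamini-Hochberg adjusted p under 0.05. TPM used recovered reads and exon lengths from GENCODE (54409 rows matched). Ratios of paralogues were compared by an exact permutation test. In data simulated for this comparison over 16411 genes, the fit called 14.2% of genes changed 2-fold and 84.6% of those changed 4-fold, so most changes near the size of that in Sox4 were missed there. Few genes were changed in each simulated run, and both groups were given the same spread. These rates therefore need not hold for the real libraries. Alternatives were pseudocounts of 0.5 and 5, quantile normalization, no filter, a minimum mean of 50, a replicate block, library weights, edgeR 4.0.16 and DESeq2 1.42.0 on recovered reads, and leaving out each library. The genes named are the 10 Sox genes, Arid1b and, of each list, those past the threshold or with the smallest p. The Sox genes and the lists were chosen with earlier results of these data known. A list of proneural factors is not reported here.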

Additional observations from a re-analysis of the deposited data

How the results depend on the processing

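With library weights 0 of the Sox genes (0 lower) and 117 of all genes passed. With DESeq2, 6 Sox genes passed (6 lower) and 2325 genes in all. The replicate block left 0 Sox genes (0 lower) and 1 gene in all. Deviations from the group mean correlated at 0.028 between the libraries of replicate number 1 and at -0.040 for number 2. The deviations of the 2 controls mirror each other, so this cannot show whether the numbers pair the libraries. The block gives heterozygous replicate 3 no weight. Sox4 had an adjusted p of 0.0689 with weights and 0.146 with the block. The log2 fold change of Sox3 was -0.036 with edgeR and -0.032 with DESeq2, against 0.15. Leaving out 1 library gave 0 to 8 Sox genes past the threshold (0 to 8 lower, 0 to 2 higher) and 0 to 8320 genes in all.

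The log2 fold change then ranged from -0.61 to 0.91 for Sox3 and from -1.06 to 0.065 for Sox21. Differences between paralogues ranged from -1.57 to 0.018 for Sox2 and Sox3, -0.73 to 0.48 for Sox2 and Sox21, -0.19 to 0.062 for Sox1 and Sox2, -0.25 to 0.25 for Sox5 and Sox6, and -0.26 to 0.055 for Sox2 and Sox9. The cause was not tested, beyond fewer libraries in these fits. Sox4 kept its sign and size in all of them (-0.99 to -0.91), as did Sox4 to Sox11 (-1.22 to -1.07).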
